A study of Mus musculus with 2 samples.

Results

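Plasmacytoid dendritic cells are a rare immune cell type of the liver, and 87 barcodes of 16716 kept ones were counted as such here. Of these, 30 (among 7917) came from the library labelled control and 57 (among 8799) from the one labelled knockout. A kept barcode had at least 300 detected genes and at most 25% mitochondrial counts. A member had at least 3 counts of Siglech and at least 5 counts of Siglech, Ccr9, Cox6a2 and Klk1 together. It also had under 15 counts per 10000 of the Kupffer genes Clec4f, Vsig4, Cd5l and C6, under 20 per 10000 of the endothelial genes Ptprb, Kdr, Stab2 and Gpr182, and under 2 counts of Cd3e and Cd79a. The rule used measured counts, so the levels of these genes, and any difference between members and other cells, are descriptions and carry no test.

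The study profiled non-parenchymal liver cells of mice after partial ligation of the inferior vena cava (pIVCL), which congests the liver, with the BD Rhapsody whole transcriptome assay. By the genotype labels, 1 library came from a Ctgf fl/fl animal without Cre, here the control, and 1 from a Cdh5-CreERT2; Ctgf fl/fl animal, here the knockout. The protocol describes the knockout as a male and the control as its littermate. Both carried the floxed Ctgf allele (Ccn2 by its current symbol, a secreted matricellular protein), both had pIVCL, and both have the same batch label. Cdh5-CreERT2 is a tamoxifen-inducible Cre recombinase under the endothelial cadherin promoter, so the deletion was aimed at endothelial cells and not at dendritic cells. The control carried no Cre, and the sources used here give neither the animals' age nor the tamoxifen dosing. The sample titles name the genotypes the other way round, whereas the library names go with the genotype labels, so groups are written as labelled. With 1 animal per genotype no test between genotypes is possible. The 95% intervals below cover counting error only, and a difference between libraries cannot be told apart from a difference between 2 animals or preparations.

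Plasmacytoid dendritic cells sense viral and self nucleic acids through endosomal Toll-like receptors and are known for releasing large amounts of type I interferon. Their identity rests on the E protein TCF4, which binds E-box motifs and is held in check by ID2, together with RUNX2, SPIB, BCL11A and IRF8. They develop in the bone marrow, travel in blood and enter the liver, where they have been linked to both antiviral responses and tolerance.

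Livers were perfused with pronase and collagenase, and hepatocytes, dead cells and erythrocytes were depleted before capture, so shares describe the cell suspension and not the liver. The members had a median of 5587 counts (range 3609 to 36781) in the control library and 7704 (3772 to 18883) in the knockout library, below the medians of all kept barcodes, 7972 and 9506. In both libraries 10000 barcodes were listed, and 2 barcode numbers occurred in both. The targeted gene Ccn2 was at 461 CPM (counts scaled to a common library total) in all other kept barcodes of the control library and at 99.7 CPM in those of the knockout library, in the direction of the genotype labels. Within the members it had 5 counts in 3 cells and 16 counts in 3 cells, a log2 ratio of 0.54 with an interval from -0.97 to 2.35, so no difference was detectable at this depth.

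Plasmacytoid dendritic cells made up 0.379% of kept barcodes in the control library (exact Clopper-Pearson interval 0.256% to 0.541%) and 0.648% in the knockout library (0.491% to 0.838%). The knockout share was 1.71-fold higher, with a counting interval from 1.08 to 2.76. The share of conventional dendritic cells type 1 (cDC1) was close to level, 1.20% against 1.13%, whereas that of conventional dendritic cells type 2 (cDC2) was lower in the knockout library, 1.14% against 0.557%. Of all dendritic cells of these 3 kinds, plasmacytoid cells were therefore 13.95% (9.62% to 19.3%) in the control and 27.8% (21.8% to 34.5%) in the knockout library. The rule sets a fixed count of Siglech, and the median depth of kept barcodes was higher in the knockout library. The part of depth in the share was not tested. The ceilings on other cell types removed 17 candidates from the control library and 16 from the knockout library, and without them the log2 ratio of the shares was 0.48 in place of 0.77.

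The edge of the rule was thinly populated. Members with 3 to 5 Siglech counts numbered 1 in the control and 4 in the knockout library. Just outside, 2 and 1 barcodes with at least 3 Siglech counts missed the sum of 5, and 4 and 12 barcodes within the ceilings had exactly 2 Siglech counts. Most kept barcodes with any Siglech count at all had more than that: 83 and 125 had at least 1, of which 33 and 47 had 1 or 2.

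Of the genes that chose the members, Siglech encodes a sialic acid-binding lectin that signals through the adaptor DAP12. It ranged from 5 to 41 counts per cell with a median of 20 in the control library, and from 3 to 97 with a median of 27 in the knockout library. Ccr9, the receptor for the chemokine CCL25, ran from 0 to 26 (median 3.5) and from 0 to 58 (median 7). Cox6a2, a muscle-type subunit of cytochrome c oxidase, ran from 0 to 12 (median 4) and from 0 to 21 (median 3), and Klk1, a kallikrein serine protease, from 0 to 6 and from 0 to 22, with a median of 1 in both. The ranges of the 2 libraries overlapped for each of the 4 genes. Ccr9, Cox6a2 and Klk1 were all detected together with Siglech in 14 of 30 and 26 of 57 cells, and 3 and 5 cells had Siglech alone of the 4.

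**Figure D1:**
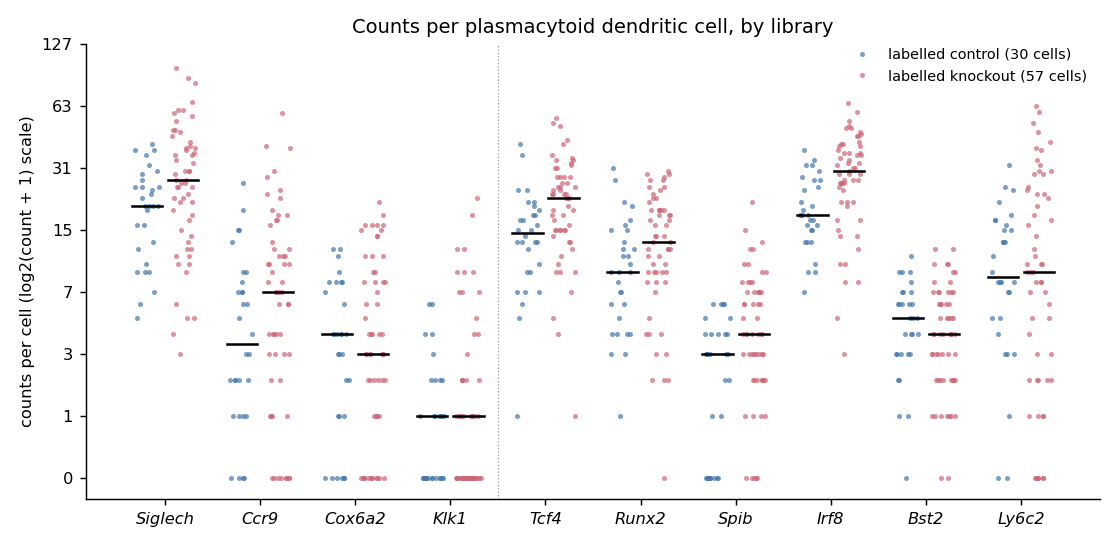
Counts per cell (vertical axis, log2 of count plus 1, ticks in counts) of 10 genes in the 30 plasmacytoid dendritic cells of the library labelled control (blue) and the 57 of the library labelled knockout (red). Each point is a cell and each bar a median, and the 4 genes left of the dotted line belong to the rule. Siglech and Irf8 were detected in every cell, Klk1 had a median of 1 in both libraries, and the libraries overlap for each gene.

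The label was checked against genes the rule did not use. Tcf4 was detected in all 87 cells, at 1 to 41 counts (median 14.5) in the control and 1 to 55 (median 22) in the knockout library. It was also detected in 57.9% and 71.7% of cDC1, 65.6% and 71.4% of cDC2 and 77.2% and 69.4% of B cells. Runx2 was detected in 30 of 30 and 56 of 57 cells, with medians of 9 and 13 counts. Bst2, which encodes tetherin and is the antigen of the antibodies used to sort these cells, was detected in 29 of 30 and 55 of 57 cells, with medians of 5 and 4. In B cells, which should lack Bst2 at rest, 23.6% and 9.81% of barcodes had a count, at median depths of 4874 and 4229 counts. Bst2 was detected in 43.2% and 39.4% of cDC1 and in 24.4% and 36.7% of cDC2. Thinned to 4257 counts per cell, which left out 7 control and 2 knockout members, 87.0% and 87.3% of members had Bst2, against 96.7% and 96.5% before thinning.

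Defining markers of other lymphoid cells were at or near 0. Cd3e had no count in any member, Cd79a had 3 counts in the control and 0 in the knockout library (the rule limits both genes), Ms4a1 had 1 and 0, and the plasma cell gene Jchain 0 and 1. Xcr1, the defining chemokine receptor of cDC1, had 1 and 0 counts. None of the markers listed for B, plasma, T and natural killer cells, mature dendritic cells, erythroid and mast cells reached the level for analysis of 20 counts in all and 20 CPM in either library. Other markers of conventional dendritic cells were present in some members. Clec9a, a receptor for dead cells best known from cDC1, had at least 3 counts in 7 of 30 and 19 of 57 members, and Cd209a, the lectin used here to mark cDC2, in 6 and 11. At 218 and 188 CPM, Clec9a was below its level in cDC1 (683 and 752 CPM). As a group the members thus had the listed plasmacytoid markers, but single members lacked several. In 1 control member Tcf4 had 1 count and Spib, Ly6d and Pacsin1 had none. In 1 knockout member Tcf4 had 1 count and Runx2, Ly6d and Pacsin1 had none. Part of the members also had single markers of conventional dendritic cells.

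For comparison, 3 other populations were drawn from the same libraries, each within the same ceilings on Kupffer and endothelial genes: 95 and 99 cDC1, 90 and 49 cDC2, and 250 and 265 B cells. Of 25 surface and identity genes listed for plasmacytoid dendritic cells, 15 were at least 4-fold above each of the 3 populations in both libraries, and the median of the smallest fold was 3.28 on the log2 scale. The 4 genes of the rule are among the 15, and without them it was 11 of 21, with a median of 3.07. Among all 5946 genes with enough counts, 93 did so, or 1.56%. Without the 4 genes of the rule, the list summed to a median of 134 counts per 10000 per cell in the control members and 128 in the knockout members. The same sum had medians of 19.04 and 19.02 in cDC1, 23.3 and 28.2 in cDC2 and 33.1 and 35.8 in B cells. Single cells overlapped. The control members ran from 10.9 to 211, all within the range of control B cells, 3.68 to 236. The knockout members ran from 19.5 to 237, and the highest knockout B cell had 94.0. The highest cDC1 had 77.5 and 68.9, and the highest cDC2 51.4 and 69.6.

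Among membrane and transport genes, Atp1b1, the beta subunit of the sodium-potassium pump, was at 838 and 979 CPM in control and knockout members and, in the nearest population, at 66.2 and 68.5 CPM in B cells. Pacsin1, an endocytic adaptor that acts in the trafficking of Toll-like receptors, was at 294 and 367 CPM, against 20.2 and 25.7 CPM in B cells. Lair1, an inhibitory collagen receptor, was at 658 and 574 CPM, with a smallest fold of 3.11 on the log2 scale. All 3 genes were thus high in the members of either library and low in every population beside them.

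The 20 genes that stood farthest above the 3 populations were led by Cox6a2, with a smallest fold of 5.83 on the log2 scale, Siglech with 5.66 and Klk1 with 5.40, all of the rule. They were followed by Grm8 (a metabotropic glutamate receptor), Pdzd4 (a PDZ domain protein), Lrp8 (a receptor for apolipoprotein E and reelin) and Klk1b27 (a second kallikrein), at 4.90, 4.76, 4.72 and 4.63. Klk1 and Klk1b27 are close paralogs whose reads may be shared, so their separate counts are uncertain. Further down the list stood Atp2a1 (a calcium pump of muscle), Sla2 (an adaptor that dampens antigen receptor signalling), Paqr5, Cd4, Lefty1, Il7r and Havcr1. Several of them are best known from muscle, kidney, gland or nerve.

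Grm8 was spread unevenly. It had 27 counts in 9 control cells, at most 8 in a cell, and 142 counts in 23 knockout cells, of which 1 cell held 70. Its level was 128 and 306 CPM (log2 ratio 1.26, 0.66 to 1.91). Cd4, the co-receptor that mouse plasmacytoid cells share with helper T cells, had 30 counts in 7 control cells and 97 counts in 21 knockout cells, and Cd3e was absent from all of them. Il7r, the receptor for interleukin 7, was at 426 and 373 CPM in members and at no more than 27.0 CPM in any of the 3 populations. Neither Cd4 nor Il7r differed between libraries by 2-fold, at log2 ratios of 0.56 and -0.19.

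TCF4 binds E-boxes, so the 250 bases before the start of each gene were searched for 3 forms: CAGGTG on either strand (CACCTG when read on the other), the palindrome CAGCTG, and the general form CANNTG, which includes the other 2. Sequences came from RefSeq on GRCm38.p6, an older build than the GRCm39 of the count files, and were matched by symbol for 65 of the 93 genes at least 4-fold above the other populations. CAGGTG on either strand was found in 27.7% of these 65 (18 promoters), in 13.6% of the 4759 matched genes with at least 20 counts in members, and in 17.1% of all 27018 promoters. The corresponding shares were 7.69%, 10.5% and 12.8% for CAGCTG, and 63.1%, 54.4% and 66.1% for CANNTG. The 65 genes thus had the highest of the 3 shares for the first motif and the lowest for the second. No test was made, a match is not a binding site, and the 93 genes were chosen by their counts. Of the rule genes with an entry, Siglech, Klk1 and Ccr9 each hold 1 copy, and Klk1b27, the paralog of Klk1, holds none. The copies begin 20, 87 and 85 bases before the RefSeq start, which follows the 250 bases searched. The windows are given on their own strand, ended where GENCODE M21 annotates an exon, with CAGGTG or CACCTG in capitals. Those of Siglech and Ccr9 thus end short of the RefSeq start, at 244 and 208 bases. The copy in Klk1 can be set against the matching stretch of Klk1b27. The windows are chr7:55767934-55768177 for Siglech, chr7:44225110-44225359 for Klk1, chr7:44052040-44052289 for Klk1b27 and chr9:123766961-123767168 for Ccr9, all on the plus strand.
Siglech: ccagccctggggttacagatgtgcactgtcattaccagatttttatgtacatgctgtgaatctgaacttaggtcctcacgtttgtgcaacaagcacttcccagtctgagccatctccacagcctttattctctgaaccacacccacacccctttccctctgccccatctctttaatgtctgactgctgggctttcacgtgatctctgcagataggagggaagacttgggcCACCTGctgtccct
Klk1: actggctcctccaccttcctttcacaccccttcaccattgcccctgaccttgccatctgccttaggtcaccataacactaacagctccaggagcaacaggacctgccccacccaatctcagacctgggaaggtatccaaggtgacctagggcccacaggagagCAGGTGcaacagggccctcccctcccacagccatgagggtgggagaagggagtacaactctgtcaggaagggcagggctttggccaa
Klk1b27: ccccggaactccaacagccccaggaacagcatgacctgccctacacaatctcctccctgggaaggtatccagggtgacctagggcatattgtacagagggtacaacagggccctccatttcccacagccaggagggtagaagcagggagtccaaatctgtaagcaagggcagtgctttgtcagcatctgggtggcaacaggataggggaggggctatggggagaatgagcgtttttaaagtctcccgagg
Ccr9: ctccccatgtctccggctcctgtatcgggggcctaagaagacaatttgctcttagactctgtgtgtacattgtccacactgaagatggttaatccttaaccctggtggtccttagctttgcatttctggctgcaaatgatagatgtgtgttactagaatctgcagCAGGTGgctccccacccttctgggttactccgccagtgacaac

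Of 16 measured transcription factors of the lineage, 15 were less than 2-fold apart between libraries. Over all measured genes 9.08% were at least 2-fold higher and 4.81% at least 2-fold lower, so most genes were also less than 2-fold apart. Tcf4 was at 2183 and 2774 CPM, with 145 to 478 CPM in the 3 other populations, and its log2 ratio between libraries was 0.35 (0.19 to 0.50). Runx2, needed for these cells to leave the bone marrow, was at 1515 and 1747 CPM. Bcl11a was at 772 and 768 CPM. Of 16 measured factors, 3 were at least 4-fold above all 3 populations, namely Runx2, Tcf4 and Zfp521, with smallest folds of 3.58, 2.19 and 2.09 on the log2 scale. Zfp521 had only 8 control and 12 knockout counts. Its fold rests on a count of 0 in knockout cDC2, set to the floor of 3 counts. The median smallest fold of the list was 0.29, so most factors were shared with another population, Bcl11a (1.27) among them.

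Irf8 was at 2836 and 3729 CPM with 7 to 38 counts per cell in the control and 3 to 65 in the knockout library, but cDC1 also had it, at 1725 and 1985 CPM. Spib, an ETS factor that B cells share, had medians of 3 and 4 counts per cell and was at 369 and 636 CPM (log2 ratio 0.78, 0.42 to 1.16). Irf7, the factor that drives interferon transcription, had 34 and 52 counts and was at 161 and 112 CPM, with a log2 ratio of -0.52 with an interval from -1.17 to 0.15. Ikzf2 (Helios) was the only 1 of the 16 that was 2-fold lower in the knockout library, with 22 counts in 11 control cells and 15 counts in 9 knockout cells, a log2 ratio of -1.69 (-2.74 to -0.67). No factor was 2-fold higher, and the median ratio of the list was 0.12, beside 0.09 over all measured genes.

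The opposing programme was low. Id2 had counts in 3 of 30 and 10 of 57 members, at 308 and 175 CPM, against 2186 and 2231 CPM in cDC1. Batf3, required for cDC1, had 2 and 4 counts, and Zbtb46, which marks conventional dendritic cells, 5 and 12. Of 10 such factors listed, 4 were measured. Klf4 alone of the 4 differed by 2-fold, at 80.5 and 203 CPM (log2 ratio 1.33, 0.58 to 2.17), beside 9.08% higher among all measured genes. Of its 94 knockout counts 38 lay in 1 cell.

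**Figure D2:**
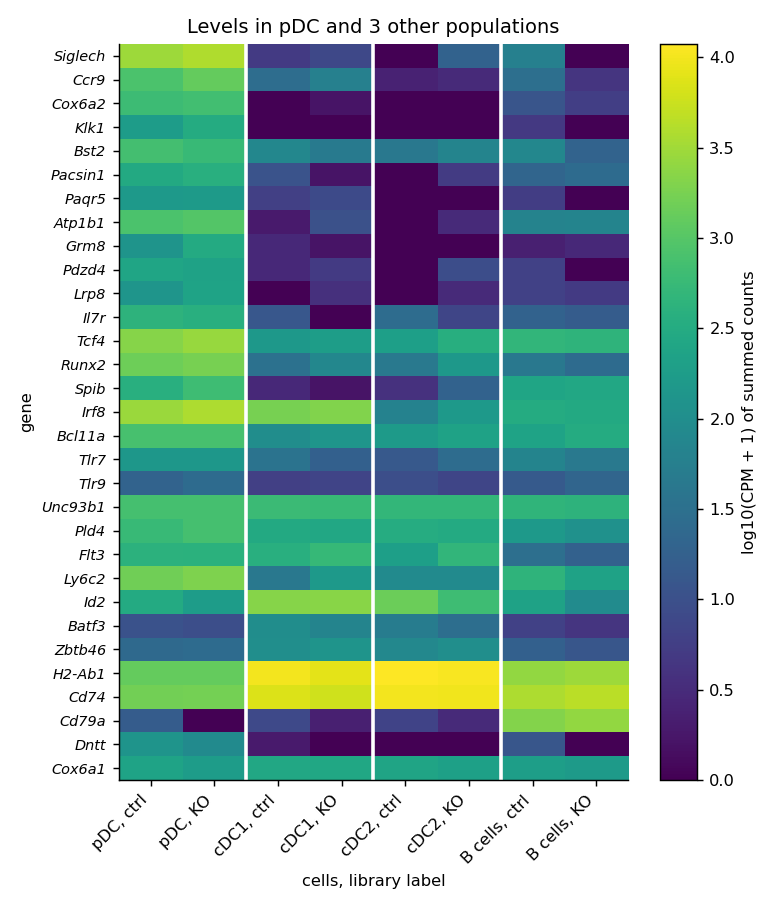
Summed expression of 31 genes (rows) as log10 of CPM plus 1 (colour) in plasmacytoid dendritic cells (pDC), cDC1, cDC2 and B cells of the libraries labelled control (ctrl) and knockout (KO). The rows from Siglech to Il7r and the Runx2 row are brighter in both pDC columns than in any other column, Irf8 is also bright in cDC1 and Spib in B cells, and Id2, H2-Ab1 and Cd74 are brighter in conventional dendritic cells.

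Genes of endosomal nucleic acid sensing were close to level between libraries, with 1 of 24 measured members at least 2-fold higher, 2 at least 2-fold lower and a median log2 ratio of 0.07. Over all 5946 measured genes, 9.08% were at least 2-fold higher and 4.81% at least 2-fold lower in the knockout library. Tlr7, the receptor for single-stranded RNA, was at 142 and 140 CPM, and it was at no more than 68.0 CPM in the other populations. Unc93b1, the chaperone that takes these receptors to endosomes, was at 739 and 742 CPM. Tlr9, the receptor for DNA, had only 4 and 12 counts, too few for a comparison.

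Pld4, an endosomal nuclease that limits Toll-like receptor ligands, was at 563 and 744 CPM, and Slc15a4, a lysosomal transporter needed for interferon production, at 42.6 and 56.1 CPM. Its partner Tasl was the member that was 2-fold higher, with 5 counts in 4 control cells and 31 in 15 knockout cells (log2 ratio 1.498, 0.12 to 3.22). The lower members were Dtnbp1 and Irak4, each with 17 control counts. In Irak4, 10 of these 17 came from 1 barcode, and without the control barcode of highest count its log2 ratio was -0.22 in place of -1.22.

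No transcript was counted of the 5 type I interferon genes that could be matched. Ifnb1, Ifnab, Ifne, Ifnk and Ifnz had 0 counts in all members and in all cells of the 3 other populations. Reading a count of 0 as up to 3 counts, the members could hold up to 14.2 CPM in the control and 6.47 CPM in the knockout library, and the exact 95% intervals for Ifnb1 end at 17.5 and 7.96 CPM. The other 15 interferon genes listed, Ifnl2, Ifnl3 and all numbered Ifna genes, had no row to match and were not analysed here. Whether members held transcripts of these genes is therefore not known. Both chains of the interferon receptor were present, Ifnar1 at 189 and 237 CPM and Ifnar2 at 289 and 280 CPM.

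Interferon-stimulated genes were lower in the knockout members. Of 30 listed, 13 were measured, 7 of them were at least 2-fold lower and none at least 2-fold higher, beside 4.81% lower among all measured genes. The median log2 ratio was -1.08. Single cells overlapped: the summed list ran from 8.31 to 191 counts per 10000 with a median of 24.2 in the control, and from 4.10 to 63.2 with a median of 18.6 in the knockout library. The 2 ranges overlapped, and the highest cells were in the control library.

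Slfn5, an interferon-induced Schlafen family gene, had 90 counts in 14 control cells, at most 44 in a cell, and 59 counts in 21 knockout cells, at most 13. Its level was 426 and 127 CPM (log2 ratio -1.74, -2.24 to -1.25). Ifi203, a member of the interferon-inducible p200 family, was detected in 26 of 30 and 44 of 57 cells with medians of 2 and 1 counts, and was at 563 and 248 CPM (log2 ratio -1.18, -1.57 to -0.80). It was the most widely detected of the 7. Irf9, the DNA-binding part of the interferon-activated complex, was at 270 and 127 CPM (log2 ratio -1.08, -1.63 to -0.53). Mx1, Ifi44 and Oasl2 had 20 to 27 control counts each and log2 ratios of -1.94, -1.65 and -1.30, and Ifi204 had 22 counts in 3 control cells against 1 count. Stat2, which relays the interferon signal, was less than 2-fold apart at -0.30, and Trim30a was at 540 and 535 CPM.

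A few barcodes weighed on these values. The control barcode of highest count, 36781 counts or 17.4% of all control member counts, held 184 of the 731 control counts of the list, and the 3 control cells with the most held 350. In another cell lay 16 of the 21 control counts of Mx1, which was detected in 4 of 30 control and 11 of 57 knockout cells. The control barcode of highest count also carried 228 counts of Kupffer markers. After leaving out the 3 control and 8 knockout members with at least 20 counts of the markers of 1 other lineage, 6 of the 13 genes were still at least 2-fold lower and the median was -0.83. Oasl2 was the gene that no longer was, at -0.64. Without the control barcode of highest count alone, Oasl2 was at -0.29 and Ifi44 at -0.41.

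Other populations had lower medians in the knockout library too. For the same 13 genes the median log2 ratio was -1.48 in B cells, with 7 at least 2-fold lower, -0.79 in cDC2 with 3, -0.26 in cDC1 with 1, and -0.38 in all other kept barcodes with none. The members thus lay between B cells and cDC2, and all 5 medians were below 0. The share of all genes called was not counted outside the members, so these counts have no background beside them. Other lists differed in B cells too. The 25 identity genes had a median of -0.94 there with 9 lower, and the 28 secretory genes 0.36 with none lower. Whether the sizes differ between populations was not tested.

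**Figure D3:**
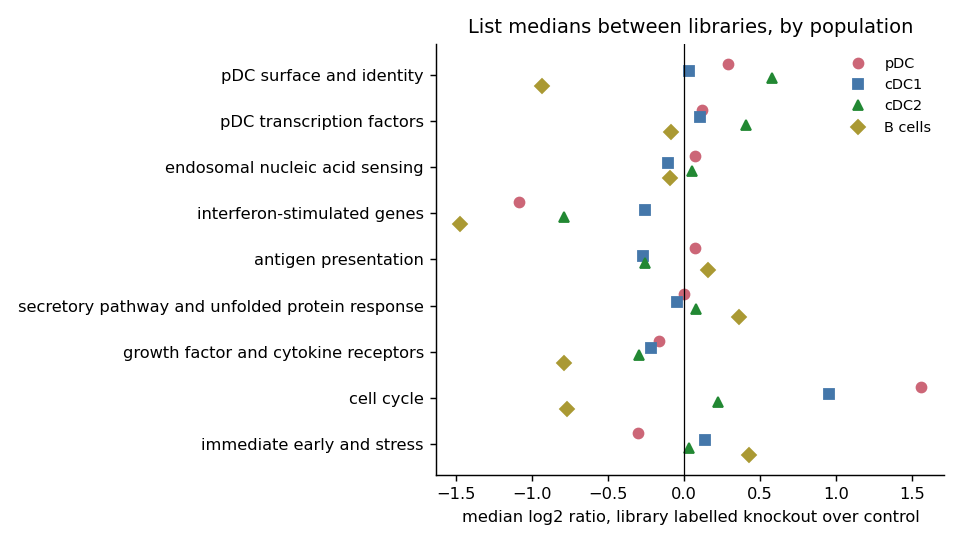
Median log2 ratio of the library labelled knockout over the library labelled control (horizontal axis) for 9 gene lists, each over the genes measured in plasmacytoid dendritic cells (pDC, circles), in cDC1 (squares), cDC2 (triangles) and B cells (diamonds). Interferon-stimulated genes lie left of 0 in all 4 populations, at -1.08 in pDC, and cell cycle genes lie at 1.56 in pDC but below 0 in B cells.

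Cell cycle genes were higher in the knockout members. Of 18 measured, 11 were at least 2-fold higher and none at least 2-fold lower, with a median log2 ratio of 1.56, beside 9.08% higher among all measured genes. The signal came from few cells. Summed over 10 genes of mitosis and its approach, counts reached at least 10 in 1 of 30 control members (3.33%, 0.0844% to 17.2%) and in 6 of 57 knockout members (10.5%, 3.96% to 21.5%), and the 2 intervals overlap. The 10 genes had 28 and 594 counts, and 3 knockout cells held 454 of the 594.

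Mki67, the usual marker of cycling cells, had 5 counts in 1 control cell and 161 counts in 9 knockout cells, a log2 ratio of 3.87 (2.62 to 5.52). Top2a, the topoisomerase of dividing cells, had 15 counts in 7 cells and 183 in 12, a log2 ratio of 2.47. Cenpf, a kinetochore protein, had 0 counts against 56, or 3.09 on the log2 scale with the control set to 3 counts, with a counting interval that starts at 2.74. Pcna and Mcm6, which act in DNA replication, were at 237 and 242 CPM and at 94.7 and 112 CPM. Without the 7 cells the list's median was 0.43, Top2a was at -0.43, and Mki67 had 0 control and 4 knockout counts, too few for a direction. Cells near that limit, with 5 to 19 counts, numbered 1 and 3.

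The same 18 genes included 7 that were at least 2-fold higher in cDC1 and none lower, and 6 higher and 1 lower in cDC2, whereas in B cells none was higher and 5 were lower. The share of all genes called was not counted in these populations. By the same limit of 10 counts, 15.8% of control and 27.3% of knockout cDC1 carried the mitotic genes, so a cycling fraction was present in other dendritic cells as well. Depths differed, with medians of 9669 and 13821 counts in cDC1, and its part in these shares was not tested.

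The 6 knockout cells with mitotic counts differed in markers from the other 51. Siglech had a median of 9.5 counts in them (range 5 to 30) against 29 (3 to 97), and Ly6c2, a surface protein of the Ly6 family, 1.5 (0 to 3) against 10 (0 to 63). Ly6d, another member of that family, had a median of 15 (0 to 44) against 6, Cox6a2 10 (0 to 21) against 3, and Flt3, the receptor for the main dendritic cell growth factor, 5.5 (1 to 8) against 2. Other identity genes had lower medians in the 6 cells: Tcf4 11 against 23, Runx2 7.5 against 14, Ccr9 1 against 8 and Bst2 2 against 4. Irf8, which cDC1 share, had medians of 34 and 29. Ranges overlapped for every one of these genes. Some mitotic cells lacked several listed plasmacytoid markers. The knockout cell with 184 mitotic counts had 24 of Tcf4, none of Ccr9, Cox6a2 or Klk1, and 8 of Clec9a. Another, with 16, had 1 count of Tcf4 and none of Runx2. The control cell had 1 count of Tcf4 and none of Spib, Ly6d or Ly6c2. Without the mitotic cells Id2 had 32 in place of 65 control counts and 27 in place of 81 knockout counts. Whether these are plasmacytoid cells was not tested.

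**Figure D4:**
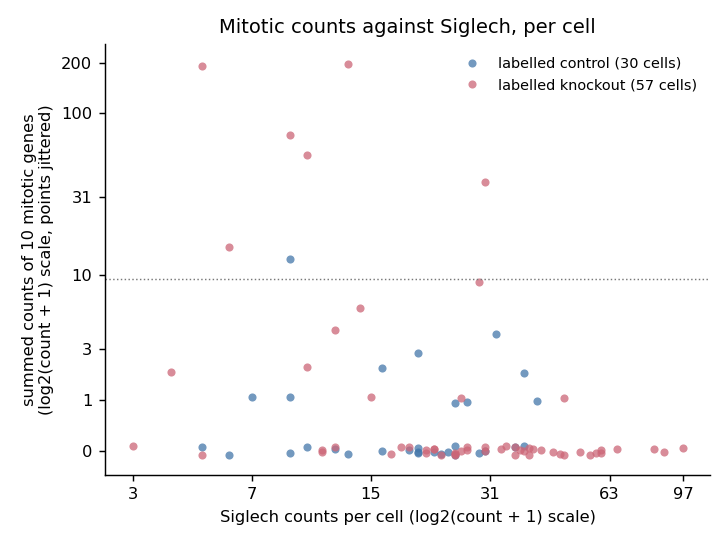
Summed counts of 10 mitotic genes per cell (vertical axis, log2 of count plus 1, ticks in counts, points moved slightly apart) against Siglech counts (horizontal axis, the same scale) in 30 control (blue) and 57 knockout (red) plasmacytoid dendritic cells. Of the 7 cells above the dotted line of 10 counts, 6 are from the knockout library, and they lie at 5 to 30 Siglech counts.

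Cells with under 15 Siglech counts, a limit set after the values were seen, numbered 9 of 30 and 14 of 57. Between 12 and 17 counts lay 4 and 6 cells, and the cells of low Siglech are taken here as a range of counts. In the knockout library Cd4 had no count in the 14 cells of low Siglech and was detected in 21 of the 43 others. In the control library it was detected in 1 of 9 and in 6 of 21. Sox4, a factor known from progenitors, was at 350 CPM in the knockout cells of low Siglech against 50.7 CPM in the others. In the control library it was at 171 against 53.7 CPM, but 13 of the 17 counts in the cells of low Siglech came from 1 cell. Cd34, a progenitor surface marker, had 23 of 27 knockout counts and all 21 control counts in the cells of low Siglech, from 3 and 2 cells. Flt3 was at 661 CPM in the low and 298 CPM in the other cells of the knockout library, and at 362 and 465 CPM in the control library. Without the control barcode of highest count, which had no Flt3, the first control value was 575 CPM.

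Genes of MHC class II, which present antigen to helper T cells, were lower in members than in conventional dendritic cells. The MHC class II genes H2-Aa, H2-Ab1, H2-Eb1 and Cd74 summed to a median of 41.8 counts per 10000 in control and 49.7 in knockout members, against 356 and 321 in cDC1, 466 and 450 in cDC2, and 142 and 159 in B cells. Ciita, their master regulator, was at 33.1 and 36.7 CPM, against 365 and 361 CPM in cDC1. Class I genes were nearer to those cells, with B2m, their shared light chain, at 2761 and 2483 CPM in members and 2747 and 2049 CPM in cDC1. Of 21 measured genes of presentation 1 was at least 2-fold higher in the knockout library, H2-DMb2, with 3 counts against 24 (log2 ratio 1.87, 0.15 to 4.24), and none was lower. Of 17 co-stimulatory and checkpoint genes only 5 were measured, and none of these differed by 2-fold. Over all measured genes 9.08% were at least 2-fold higher and 4.81% at least 2-fold lower, so few calls were to be met in lists of this size.

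Genes of the secretory pathway and the unfolded protein response had a median log2 ratio of -0.0017 between libraries. None of 28 measured was 2-fold apart, beside 9.08% higher and 4.81% lower among all measured genes. The list summed to 7022 and 7364 CPM in members, close to the 6743 and 6729 CPM of cDC1. Xbp1, the factor that expands the endoplasmic reticulum, was at 417 and 375 CPM, against 165 and 180 CPM in cDC1 and 309 and 525 CPM in B cells. Hspa5, its main chaperone, was at 848 and 1035 CPM. Among 21 effector products, 6 were measured. Granulin (Grn), which carries DNA to TLR9, was at 1402 and 1305 CPM, and the chemokine Ccl4 at 104 and 119 CPM in 8 and 15 cells.

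Cytochrome c oxidase showed 1 subunit out of step with the rest. Cox6a2 was at 611 and 701 CPM in members and at most 10.7 CPM in the other populations. The other 11 measured subunits had smallest folds from -1.61 to -0.15 on the log2 scale, so each was lower in members than in at least 1 population of 1 library. None of the 12 was 2-fold apart between libraries, beside 9.08% higher and 4.81% lower among all measured genes. Cox6a1, the ubiquitous isoform of the same subunit, was at 232 and 179 CPM in members, and at 274 and 266 CPM in cDC1.

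Genes shared with B lineage development were part of the pattern in both libraries. Dntt, the polymerase that adds bases to rearranging receptor genes, was detected in 13 of 30 and 18 of 57 members, at 128 and 88.4 CPM, and had 11.3 and 0 CPM in B cells. Iglc3, a lambda light chain constant region, was at 313 and 347 CPM, whereas Igkc, which B cells had at 39103 and 55940 CPM, was at 71.0 and 75.5 CPM. Ighm was at 895 and 1169 CPM with counts in 29 of 30 and 56 of 57 cells. The members held more Ighm than Igkc counts, 189 against 15 and 542 against 35, whereas in B cells Igkc had the higher count. None of the 8 measured genes of this list was 2-fold apart between libraries, beside 9.08% higher and 4.81% lower among all measured genes.

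Of 15 measured chemokine receptors and homing genes, 2 were at least 2-fold higher and none lower, beside 9.08% higher among all measured genes. Without the members that carried another lineage's markers, 1 was higher and 1 lower. Gpr183 (EBI2), a receptor for oxysterols that guides dendritic and B cells, had 9 counts in 5 control cells and 66 counts in 25 knockout cells. It was at 42.6 and 142 CPM (log2 ratio 1.74, 0.73 to 2.93). It was also higher in the knockout library in cDC1 (37.5 and 86.4 CPM), cDC2 (74.0 and 193 CPM) and B cells (101 and 237 CPM). Itgax (CD11c) was at 118 and 242 CPM, and without the members that carried another lineage's markers its log2 ratio was 0.81 in place of 1.03. Cxcr3 and Cxcr4 were less than 2-fold apart.

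Genes of TGF-beta and CCN signalling, the pathway nearest to the targeted gene, had 10 measured members, 2 of them at least 2-fold higher, beside 9.08% of all measured genes. Smad4, the common partner of the receptor-activated SMADs, had 12 counts in 8 control cells and 63 counts in 34 knockout cells (log2 ratio 1.26, 0.35 to 2.28). Tgfbr3 had 3 and 17 counts, a log2 ratio of 1.37 (-0.42 to 3.78). Tgfbr1 was at 166 and 265 CPM and Tgfbr2 at 128 and 114 CPM.

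Among genes with at least 40 counts whose level in the higher library was at least that of the other kept barcodes, the 10 with the highest ratios were 6 of cell division (Mki67, Cenpa, Tpx2, Cenpf, Top2a and H2ax), the neutrophil gene Retnlg, and Ago4, Plekha2 and Cd33. Ago4, an Argonaute protein of the small RNA machinery, had 3 counts in 3 control cells and 42 in 23 knockout cells, a log2 ratio of 2.67 (1.03 to 5.01). Plekha2, a lipid-binding adaptor, had 5 counts in 5 cells and 50 in 28 (2.19, 0.87 to 3.87). Cd33, an inhibitory Siglec, had 6 counts in 4 cells and 60 in 21 (2.19, 0.98 to 3.69). These 3 were spread over many knockout cells, with at most 11 counts in any. In cDC1 they were at 25.7 and 37.3 CPM for Ago4, 132 and 109 CPM for Plekha2 and 33.6 and 13.1 CPM for Cd33. Retnlg had 124 counts in 3 knockout cells, 115 of them in 1, and none in the control members.

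The 10 with the lowest ratios were Slc8a1, Cd300lf, Rubcn, Slpi, Cebpg, Ifi47, Xrn1, Peli2, Ifi203 and Pim1, with log2 ratios from -2.13 to -1.16. Slc8a1, the lowest, had 15 of its 30 control counts in the control barcode of highest count. Without that barcode its log2 ratio was -1.41. Pim1, a kinase induced by cytokines, was at 308 and 138 CPM in members and was lower in the knockout library in B cells (842 and 532 CPM) and cDC2 (818 and 554 CPM) too, but not in cDC1 (442 and 439 CPM). Ifi47, an interferon-induced GTPase, was at 199 and 82.0 CPM in 17 and 28 cells. Slpi, a secreted protease inhibitor, had 27 and 22 counts and was at 128 and 47.5 CPM. Cd300lf was at -1.64, but 19 of its 27 control counts came from 1 barcode, and its log2 ratio was -0.02 without the members that carried another lineage's markers.

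At least 20 counts of another lineage's markers were found in 3 of 30 control cells, which held 24.9% of the control counts, and in 8 of 57 knockout cells, which held 17.7%. The limit was set after the values were seen. In the control library 1 barcode carried Kupffer and endothelial RNA, 1 had 113 hepatocyte counts, and 1 had monocyte markers. In the knockout library 1 barcode had 582 of the 640 counts of the neutrophil list, 2 had mesenchymal markers (227 and 87 counts), and the others were hepatocyte, Kupffer, endothelial or neutrophil. Doublets were not removed, and 2 control and 4 knockout members were among the top 5% of doublet scores.

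Several lists changed once these members were left out. With them, 4.81% of all measured genes were at least 2-fold lower and 9.08% at least 2-fold higher. Over all genes the number lower also fell without them, from 286 to 178. Csf1r, the macrophage growth factor receptor, was at 327 and 92.7 CPM, with a log2 ratio of -1.82, but at 0.88 without them, since 60 of its 69 control counts came from 1 barcode. Lyz2 moved from -3.58 to -0.59, and of its 364 control counts 220 came from that barcode. Of 17 measured ITAM-linked and inhibitory receptor genes 4 were 2-fold lower with these members and none without, and Tyrobp, the adaptor DAP12 that Siglec-H uses, was level at 1624 and 1736 CPM. Of 15 growth factor and cytokine receptors 4 were lower with them, and without them none was lower and 2 were higher. Of 13 genes of precursor and transitional dendritic cells 4 were lower with them (Axl, Ms4a4c, Cd81 and Lgals3) and 2 without, and Axl had 19 of its 21 control counts in 1 barcode. The 19 immediate early and stress genes had a median of -0.30 with them and 0.13 without. Identity genes moved from a median of 0.29 to 0.03.

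**Figure D5:**
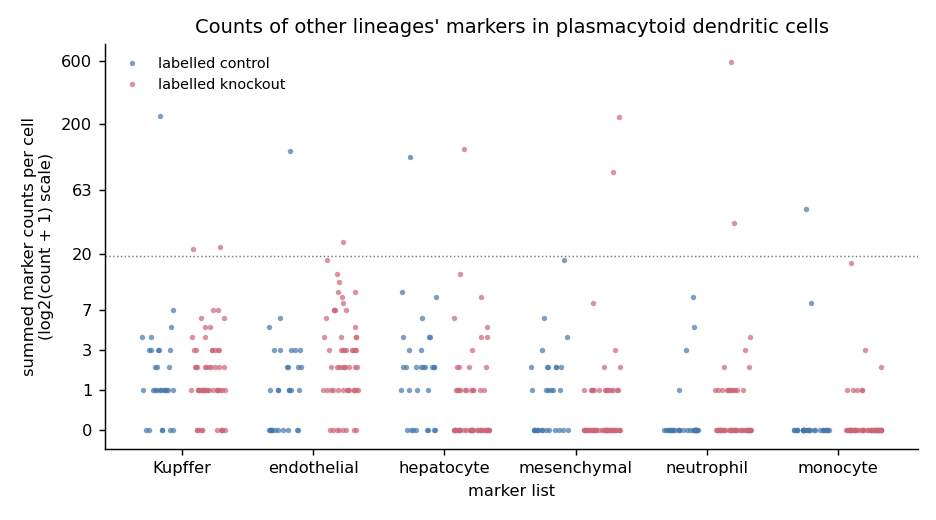
Summed counts per cell of the markers of 6 other lineages (vertical axis, log2 of count plus 1, ticks in counts) in control (blue) and knockout (red) plasmacytoid dendritic cells. Above the dotted line of 20 counts lie 3 control cells, 1 of them for both Kupffer and endothelial markers, and 8 knockout cells, the highest of which has 582 neutrophil counts.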

How the data were processed

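Single-cell RNA-seq was measured in 1 library per genotype, grouped by the genotype label. The values are whole-number counts per gene and barcode, as the authors deposited them for 10000 barcodes in each library. GRCm39 is the build per the submitters' processing notes, and for the aligner, the counter and the collapsing of molecular identifiers the entry is: not given in the sources used here. Totals were 106208933 and 129802501 counts over 26575 and 26739 features.

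Counts of the member cells were summed per library and divided by their total (CPM). Ratios have exact conditional Poisson intervals and shares exact Clopper-Pearson intervals, at 95% and for counting error only, and a count of 0 was read against a floor of 3 counts. A gene counted as measured at 20 or more counts in all and 20 or more CPM in either library, and differences were called by size, at 2-fold. With 1 library per genotype there is no test. The cDC1 had at least 3 counts of cDC1 markers, cDC2 at least 3 of Cd209a, and B cells at least 5 of B cell markers. Doublet scores came from Scrublet as implemented by Scanpy 1.11.5. Only 1 barcode per library passed its automatic cutoff, which is taken as a failure, so the top 5% of scores stands in, and none was removed. Python 3.11.15, NumPy 2.4.6, SciPy 1.17.1, pandas 2.3.3 and Matplotlib 3.10.9 were used, with edgeR 4.0.16 for the TMM scaling factor, and the calculations were tested on simulated data.

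The members and lists were chosen with earlier results of these data known. Genes named are the identity and transcription factor lists, the most abundant and the most different members of the other lists, the 20 genes farthest above the 3 populations, and the genes of 40 or more counts with the 10 highest and the 10 lowest ratios. Zeros, limits and single cells named beyond these were chosen after their values were seen. Alternatives changed the thresholds, ceilings, scaling, depth and low-count filter, and left out doublets or single groups of barcodes.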

Additional observations from a re-analysis of the deposited data

How the results depend on the processing

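The higher share of plasmacytoid dendritic cells in the knockout library kept its direction in every alternative run, with log2 ratios from 0.48 to 0.97. The count of genes at least 2-fold higher (540) was 289 after thinning to equal depth, 347 at a minimum of 50 CPM and 1218 at a minimum of 5 counts. The count of genes lower (286) was 437 without the ceilings, 188 without the top doublet scores, 134 after thinning, 986 at a minimum of 5 counts and 178 without barcodes that carried another lineage's markers, an alternative chosen after seeing the data. The 93 genes high in members were 166 without the ceilings. After thinning, the median of the factors of conventional dendritic cells was 1.12 and that of immediate early genes 0.31. Without the mitotic cells Mki67 had 0 control and 4 knockout counts, and its -0.60 comes from the floor of 3 counts set for the control. Single genes that turned direction were Top2a (-0.43) without the mitotic cells, Ikzf3 (0.17) and Dusp2 (0.086) without the ceilings, and Ccl5 at -2.05 without the ceilings and -0.84 thinned. Thinning also turned Irak4 (1.06) and Tnfrsf1a (0.064). Without the control barcode of highest count, Clec4a1 was at 0.59, Pilra at 1.91, Csf1r at 0.85 and Tnfrsf1b at 0.59. Without barcodes of another lineage, Csf1r was at 0.88, Tnfrsf1b at 0.32 and Lgals3 at 0.46. Stricter ceilings gave Pilra 1.59, Csf1r 0.35 and Ube2c -0.67, leaving out top doublet scores gave Pilra 0.66 and Csf1r 0.88, and the mean over cells gave Pilra 1.26. The cause was not tested. TMM and median-of-ratios scaling shifted all log2 ratios by 0.011 and 0.032. No paired analysis was possible because each genotype label has 1 library. Depth limits genes under about 20 counts, and 3 counts correspond to 14.2 and 6.47 CPM.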
